A study of Mus musculus with 12 samples.

Results

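The genes described here are 35 members of the type I interferon response, chosen by mouse symbol from a list that left out the oligoadenylate synthetase (Oas) family and the GTPases induced mainly by interferon gamma. Each of the 35 symbols matched 1 of the 55487 gene identifiers in the count table, and all 35 had enough reads to be tested among 16974 genes. The rule names symbols, and the list was drawn up with earlier results of these data known. RNA was sequenced from 12 samples of subcutaneous tumours of Sq-1979, a murine head and neck squamous carcinoma line, with 3 samples in each of 4 groups. The cells were implanted in Matrigel in male C3H/HeN mice that were 6 weeks old, so every group shared the cell line, the site, the strain and the sex. From day 20 the mice were given vehicle alone, regorafenib (5 mg/kg daily), an antibody against the checkpoint receptor PD1 (anti-PD1), or regorafenib and anti-PD1 together (the combination). Regorafenib is an oral inhibitor of several kinases, among them receptors for VEGF and PDGF and the RAF kinases. The question put to the data was what each agent, alone and with the other, did to these genes in the tumour. As a model this is 1 cell line in 1 mouse strain, grown under the skin and not in the mouth, and the oral carcinogen model that the series also names was not analysed here. Nothing in the labels ties the 3 samples per group to 3 different mice, so p-values measure the spread between these samples.

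Type I interferons are secreted proteins that signal through the receptor pair Ifnar1 and Ifnar2 and the kinases Jak1 and Tyk2. The kinases phosphorylate Stat2, which works with Irf9 in a complex that binds a promoter sequence called the interferon-stimulated response element. The induced genes encode sensors of viral nucleic acid, proteins that block viral replication, enzymes that attach the ubiquitin-like protein Isg15 or ubiquitin to other proteins, and the transcription factors of the pathway itself. Interferon gamma acts through another receptor and mainly through the gamma-activated sequence, and many genes respond to both.

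Promoter sequence is shown because interferon signalling reaches such genes through the response element, though the core searched for was found in only some of them. The core searched for was GAAANNGAAA on either strand, where N is any base, and overlapping matches were allowed. In the RefSeq promoter table for GRCm38.p6, which gives 250 bases before and 50 after a transcript start, 25 of the 35 members were found. The core lay in a promoter of 11 of these 25 members (44%), against 3.99% of all 27025 genes with promoters of the same length in the table. The 8 stretches below run 5′ to 3′ on the strand of the gene, begin 15 bases before the first match and stop before the start. Matches to the core are in capitals, and TTTC repeats are the same core on the opposite strand.
Isg15 (chr4:156200837-156200911, minus strand): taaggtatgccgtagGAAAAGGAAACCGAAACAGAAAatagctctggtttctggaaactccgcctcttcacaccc
Ifit1 (chr19:34640770-34640844, plus strand): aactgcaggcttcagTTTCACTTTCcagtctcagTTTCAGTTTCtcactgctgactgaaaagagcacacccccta
Ifit3 (chr19:34583358-34583432, plus strand): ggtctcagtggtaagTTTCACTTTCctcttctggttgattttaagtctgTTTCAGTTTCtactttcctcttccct
Ifit3b (chr19:34607754-34607828, plus strand): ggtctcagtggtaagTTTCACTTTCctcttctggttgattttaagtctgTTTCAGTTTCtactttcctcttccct
Bst2 (chr8:71537543-71537617, minus strand): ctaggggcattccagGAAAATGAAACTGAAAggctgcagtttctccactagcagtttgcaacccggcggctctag
Rsad2 (chr12:26456513-26456587, minus strand): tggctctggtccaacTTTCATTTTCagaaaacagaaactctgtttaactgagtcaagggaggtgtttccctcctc
Ddx60 (chr8:61928019-61928086, plus strand): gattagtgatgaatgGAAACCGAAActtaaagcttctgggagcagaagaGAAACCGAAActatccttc
Stat2 (chr10:128270261-128270335, plus strand): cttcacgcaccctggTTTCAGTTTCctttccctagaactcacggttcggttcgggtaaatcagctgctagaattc

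Isg15 carried 3 overlapping copies of the core beginning 78, 72 and 66 bases before its start, and Bst2 carried 2 overlapping copies beginning 130 and 124 bases before it. Ddx60 had 2 separate copies at 53 and 19 bases, both with the letters GAAACCGAAA. Ifit1 had 2 copies at 104 and 85 bases. Ifit3 and Ifit3b, which arose by duplication, were identical over all 75 bases shown. Single matches lay 120 bases before the start of Rsad2 and 222 bases before that of Stat2. The other 3 members with a match were Eif2ak2, Ifih1 and Trim30a, with matches close to or just after the start. The gamma-activated sequence core TTCNNNGAA, which reads the same on both strands, lay in a promoter of 5 of the 25 members (20%), against 9.55% of all genes in the table. In Bst2 its match TTCCAGGAA overlapped the first response element core. A spacing of 1 base in place of 2, GAAANGAAA, was searched only after the promoters had been read. It was found in 8 of the 25 members (32%), against 3.70% of all genes in the table, and those were Helz2, Xaf1 and Phf11d, each with the letters GAAACGAAA within 26 bases of the start, and Ifi35, Ifi44, Isg15, Stat2 and Trim30a. A match is a description of letters and not of a bound site.

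Levels are given in CPM (reads of a gene relative to the library's total, scaled to a fixed size), normalised with TMM factors. These scale each library by the mean ratio of its genes to a reference library, after the most extreme genes are trimmed. Library totals lay between 22591835 (regorafenib 2) and 28209036 (anti-PD1 3) counts. The lowest count of any member in any library was 417 (Ifi27) and the highest was 27836 (Ifit3), so none was near the detection limit. Per kilobase of exon, which allows levels of different genes to be compared, the mean over all libraries was highest for Ifi27l2a at 757 CPM per kb, followed by Bst2 at 465, Ifit3 at 357 and Ifit1 at 199. It was lowest for Herc6 at 5.65 CPM per kb. The tumour samples expressed squamous keratin and junction genes (8 markers, Krt5 and Krt14 among them, summed 10790 to 17413 CPM in every library), as squamous carcinoma does.

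The average regorafenib effect was the main comparison. It is the mean of the change from vehicle to regorafenib and the change from anti-PD1 to the combination, on the log2 scale, so it sets 6 libraries with the drug against 6 without it. Levels of the interferon-stimulated genes lay mostly higher with regorafenib. Of the 35, 34 had a positive log2 fold change, with a median of 0.53 against 0.00303 over all genes tested. By edgeR's quasi-likelihood test, with p-values adjusted by Benjamini-Hochberg over all 16974 genes and a threshold of 0.05, 9 members rose and 0 fell. Of all genes tested 6.16% rose, and of the 6198 genes at or above the mean level of the lowest member 6.6% did. The 9 were Mx2, Samd9l, Helz2, Xaf1, Ddx60, Stat2, Herc6, Phf11d and Trim25. At an unadjusted p under 0.05, 26 members differed, against 28% of genes tested. DESeq2 called 20 members in either direction, against 16.5% of the genes it gave an adjusted p. In these bulk samples, a change in the share of cells that express a gene and a change in RNA per cell cannot be told apart.

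**Figure D1:**
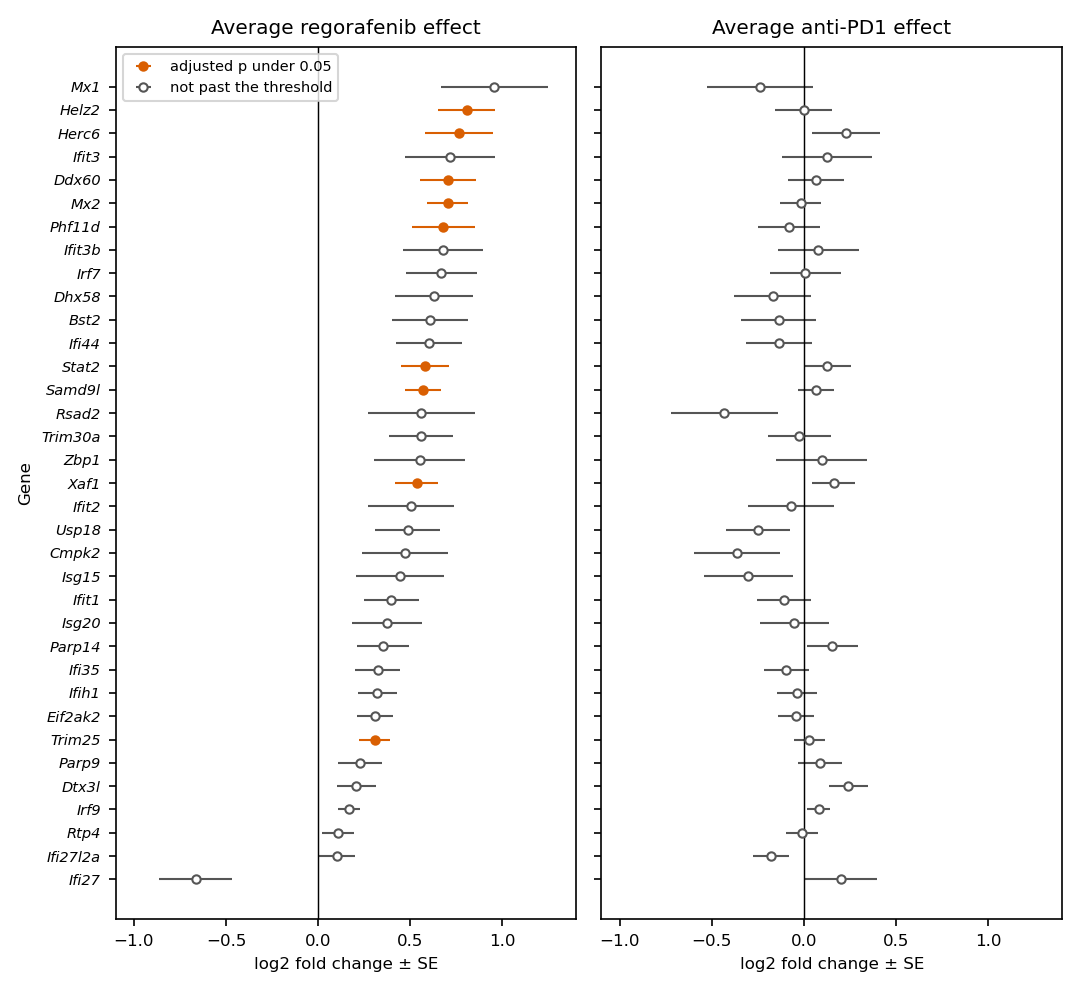
Log2 fold change with its standard error (bar) for each of the 35 genes in the average regorafenib effect (left) and the average anti-PD1 effect (right), from 1 edgeR fit over 12 libraries. Filled points passed an adjusted p of 0.05: 9 genes on the left, 0 on the right, and on the left 34 of 35 points lie above 0, with Ifi27 alone below.

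Of the 6 members that sense nucleic acid or carry the interferon signal, 1 rose and all 6 had positive values, with a median log2 fold change of 0.56. Stat2, the subunit that gives the interferon transcription complex its activation domain (chromosome 10, 128270559 to 128292849), stood at 284, 259 and 214 CPM with vehicle, 337, 236 and 354 with anti-PD1, 439.9, 483 and 346 with regorafenib and 354, 419 and 462 with both agents. The 6 libraries with regorafenib overlapped the 6 others in 1 place only, where regorafenib 3 at 346 CPM lay below anti-PD1 3 at 354 CPM. The change was 1.49-fold (log2 0.58 ± 0.13 SE, edgeR adjusted p 0.0242), and the call was lost without vehicle 2, vehicle 3, anti-PD1 2 or combination 2, at adjusted p-values up to 0.0661. Its partner Irf9 was among the members that moved least, with 156, 158 and 147 CPM with vehicle, 179.5, 156 and 179 with anti-PD1, 165, 192 and 189 with regorafenib and 186, 173 and 187 with both agents. Its lowest value with regorafenib, 165 CPM, lay within the anti-PD1 range, and its log2 fold change was 0.17 ± 0.06 (edgeR adjusted p 0.102). Irf7, the transcription factor that amplifies type I interferon production, averaged 379 ± 69.3 CPM (SD, n = 3) with vehicle, 476 ± 151 with anti-PD1, 753 ± 137 with regorafenib and 606 ± 170.2 with both agents and missed the threshold at a log2 fold change of 0.67 (edgeR adjusted p 0.0537). The double-stranded RNA sensor Ifih1 (MDA5), its relative Dhx58 (LGP2) and the Z-form nucleic acid sensor Zbp1 had log2 fold changes of 0.32, 0.63 and 0.55, with edgeR adjusted p-values of 0.0811, 0.0829 and 0.177.

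Of the 13 antiviral effectors, 3 rose and all 13 had positive values, with a median log2 fold change of 0.57. Mx2 belongs to the dynamin-like GTPases that trap viral components, and the annotation lists it as a polymorphic pseudogene, a gene that is intact in some strains only (chromosome 16, 97535308 to 97560900). It stood at 59.9, 59.9 and 56.5 CPM with vehicle, 67.8, 52.0 and 71.6 with anti-PD1, 115, 113 and 87.5 with regorafenib and 81.1, 88.4 and 114 with both agents. The lowest of the 6 regorafenib-treated libraries, combination 1, lay above the highest of the 6 others, anti-PD1 3. Its change was 1.63-fold (log2 0.70 ± 0.11 SE, edgeR adjusted p 0.00748), the smallest adjusted p among the members. Samd9l, an interferon-induced inhibitor of translation (chromosome 6, 3372257 to 3399572), stood at 323, 309 and 288 CPM with vehicle, 340.2, 265 and 357 with anti-PD1, 487, 442 and 434 with regorafenib and 399, 546 and 485 with both agents. Here too the groups with and without the drug did not overlap, and the change was 1.48-fold (log2 0.57 ± 0.10 SE, edgeR adjusted p 0.0102). Ddx60, a helicase that promotes RNA sensing (chromosome 8, 61928087 to 62038244), stood at 161, 129 and 135 CPM with vehicle, 190.2, 124 and 179.7 with anti-PD1, 334, 227 and 210.0 with regorafenib and 190.5, 255 and 277 with both agents. Its groups touched most closely at 190.2 CPM in anti-PD1 1 and 190.5 CPM in combination 1, a separation of under 1 CPM. The change was 1.63-fold (log2 0.70 ± 0.15 SE, edgeR adjusted p 0.0226), and the call was lost without vehicle 2, vehicle 3, anti-PD1 2 or combination 2, at adjusted p-values up to 0.0661. Mx2 and Samd9l stayed past the threshold whichever of the 12 libraries was left out.

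The effectors with the highest levels per length did not pass. Bst2 (tetherin), which holds budding virus at the cell surface, stood at 337, 316 and 296 CPM with vehicle, 369, 256 and 414 with anti-PD1, 821, 525 and 397 with regorafenib and 294, 459 and 559 with both agents. Combination 1 lay below all vehicle libraries, and regorafenib 1 was the highest of the 12 (log2 0.61 ± 0.21 SE, edgeR adjusted p 0.0860). Ifit3 and Ifit1 encode tetratricopeptide proteins that act on foreign RNA, Ifit1 by binding caps that lack methylation. Ifit3 stood at 468, 396 and 349.7 CPM with vehicle, 718, 276 and 639 with anti-PD1, 920.3, 939.7 and 592 with regorafenib and 555, 609.8 and 1008 with both agents. Anti-PD1 1 and 3 lay above regorafenib 3, and the log2 fold change was 0.71 ± 0.25 (edgeR adjusted p 0.0897). Ifit1 stood at 471, 422 and 418 CPM with vehicle, 521, 349.8 and 551 with anti-PD1, 738, 727 and 554 with regorafenib and 482, 431 and 689 with both agents. Combination 2 lay within the vehicle range, and the log2 fold change was 0.40 ± 0.15 (edgeR adjusted p 0.110). Mx1, the nuclear GTPase that restricts influenza virus in mice, had the largest fold of all members, 1.94-fold (log2 0.95 ± 0.29 SE), with an edgeR adjusted p of 0.0625. The remaining 6 effectors were Ifit2, Ifit3b, the radical enzyme Rsad2 (viperin), the double-stranded RNA kinase Eif2ak2 (PKR), the exonuclease Isg20 and the nucleotide kinase Cmpk2. Their log2 fold changes ran from 0.31 (Eif2ak2) to 0.68 (Ifit3b), with edgeR adjusted p-values from 0.0719 to 0.233.

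Of the 8 members that act on Isg15, ubiquitin or ADP-ribose, 2 rose and all 8 had positive values, with a median log2 fold change of 0.40. Herc6, the main ligase that attaches Isg15 to proteins in mice (chromosome 6, 57581000 to 57664632), stood at 40.3, 31.8 and 29.5 CPM with vehicle, 47.5, 30.1 and 55.6 with anti-PD1, 70.4, 75.6 and 47.4 with regorafenib and 48.5, 74.2 and 79.4 with both agents. Regorafenib 3 and combination 1 lay among the anti-PD1 libraries, and all others with the drug lay above the 6 without it. The change was 1.70-fold (log2 0.76 ± 0.19 SE, edgeR adjusted p 0.0315), and the call was lost in 8 of 12 fits that left out a library (any vehicle library, anti-PD1 2, regorafenib 1 or 2, combination 2 or 3), at adjusted p-values up to 0.0820. Trim25, the ubiquitin ligase that activates RIG-I (chromosome 11, 88999376 to 89020293), stood at 221, 221 and 222 CPM with vehicle, 262, 208 and 233 with anti-PD1, 329, 237 and 287 with regorafenib and 279, 293 and 265 with both agents. Vehicle libraries were nearly equal, and only anti-PD1 1 reached into the range of the treated ones. The change was 1.24-fold (log2 0.31 ± 0.08 SE, edgeR adjusted p 0.0474). That call held in only 2 of the 12 fits, without anti-PD1 1 and without regorafenib 2, and the adjusted p reached 0.126 in the others. Isg15 itself averaged 108 ± 7.41 CPM (SD, n = 3) with vehicle, 105 ± 31.4 with anti-PD1, 177 ± 64.5 with regorafenib and 119.5 ± 54.9 with both agents, with a log2 fold change of 0.45 ± 0.24 (edgeR adjusted p 0.256), and Usp18, the protease that removes Isg15 and restrains the receptor, had 0.49 ± 0.18 (0.103). Trim30a, a ligase that restrains inflammatory signalling, had a log2 fold change of 0.56 (edgeR adjusted p 0.0658). Dtx3l and Parp9, which work as 1 complex of a ubiquitin ligase and an ADP-ribosyltransferase, had 0.21 and 0.23, and the ADP-ribosyltransferase Parp14 had 0.35, with edgeR adjusted p-values from 0.130 to 0.239.

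Of the 8 other members 3 rose, and 7 had positive values. Helz2, a helicase that also serves nuclear receptors as a coactivator (chromosome 2, 181227615 to 181242027), stood at 108, 101 and 89.3 CPM with vehicle, 103, 93.5 and 146 with anti-PD1, 257, 194 and 151 with regorafenib and 140.3, 185 and 196 with both agents. Only anti-PD1 3, at 146 CPM, reached above the lowest library with the drug, combination 1 at 140.3 CPM. The change was 1.75-fold (log2 0.81 ± 0.15 SE, edgeR adjusted p 0.0150), the largest of the 9 called members, and the call held with each library left out. Xaf1, a zinc finger protein that promotes cell death by opposing the inhibitor XIAP (chromosome 11, 72301629 to 72313733), stood at 143, 124 and 119.7 CPM with vehicle, 174, 120.0 and 174 with anti-PD1, 211, 218 and 177 with regorafenib and 175, 208 and 243 with both agents. Its groups did not overlap, though anti-PD1 3 and combination 1 differed by little, and the change was 1.45-fold (log2 0.53 ± 0.12 SE, edgeR adjusted p 0.0217), a call lost without vehicle 2, vehicle 3 or combination 2 at adjusted p-values up to 0.0630. Phf11d, a PHD finger protein (chromosome 14, 59347407 to 59365470), stood at 90.4, 85.0 and 78.1 CPM with vehicle, 88.4, 68.9 and 114 with anti-PD1, 189, 156 and 115 with regorafenib and 93.0, 126 and 164 with both agents. Combination 1 and anti-PD1 3 broke the separation of the groups, and the change was 1.6-fold (log2 0.68 ± 0.17 SE, edgeR adjusted p 0.0352), a call lost in the same 8 fits as for Herc6, at up to 0.0924. The leucine zipper protein Ifi35 had a log2 fold change of 0.32 (edgeR adjusted p 0.117) and Ifi44 0.60 (0.0578).

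Members at the other end of the list did not follow the rest. Ifi27l2a, a small hydrophobic membrane protein with the highest level per length, stood at 321, 360.0 and 329 CPM with vehicle, 333, 294 and 385 with anti-PD1, 439, 386 and 404 with regorafenib and 302, 269 and 386 with both agents. All regorafenib libraries lay above vehicle, but combination 1 and 2 lay below it, and the log2 fold change was 0.10 ± 0.10 (edgeR adjusted p 0.550). Rtp4, a chaperone for receptors on their way to the cell surface, stood at 164, 154 and 161 CPM with vehicle, 181, 139.5 and 182 with anti-PD1, 187, 191 and 167 with regorafenib and 167, 149 and 198 with both agents. Its 12 values spanned 1.42-fold from lowest to highest, and the log2 fold change was 0.11 ± 0.09 (edgeR adjusted p 0.458). Ifi27, which lies beside Ifi27l2a on chromosome 12 and encodes a related protein, was the only member with a negative value and is described because of that value. It stood at 42.0, 46.4 and 53.3 CPM with vehicle, 51.0, 57.9 and 45.1 with anti-PD1, 17.6, 34.8 and 32.2 with regorafenib and 45.9, 34.9 and 22.0 with both agents. Regorafenib 1 and combination 3, where most members were highest, had its lowest levels, and the log2 fold change was -0.66 ± 0.20 (edgeR adjusted p 0.0594).

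**Figure D2:**
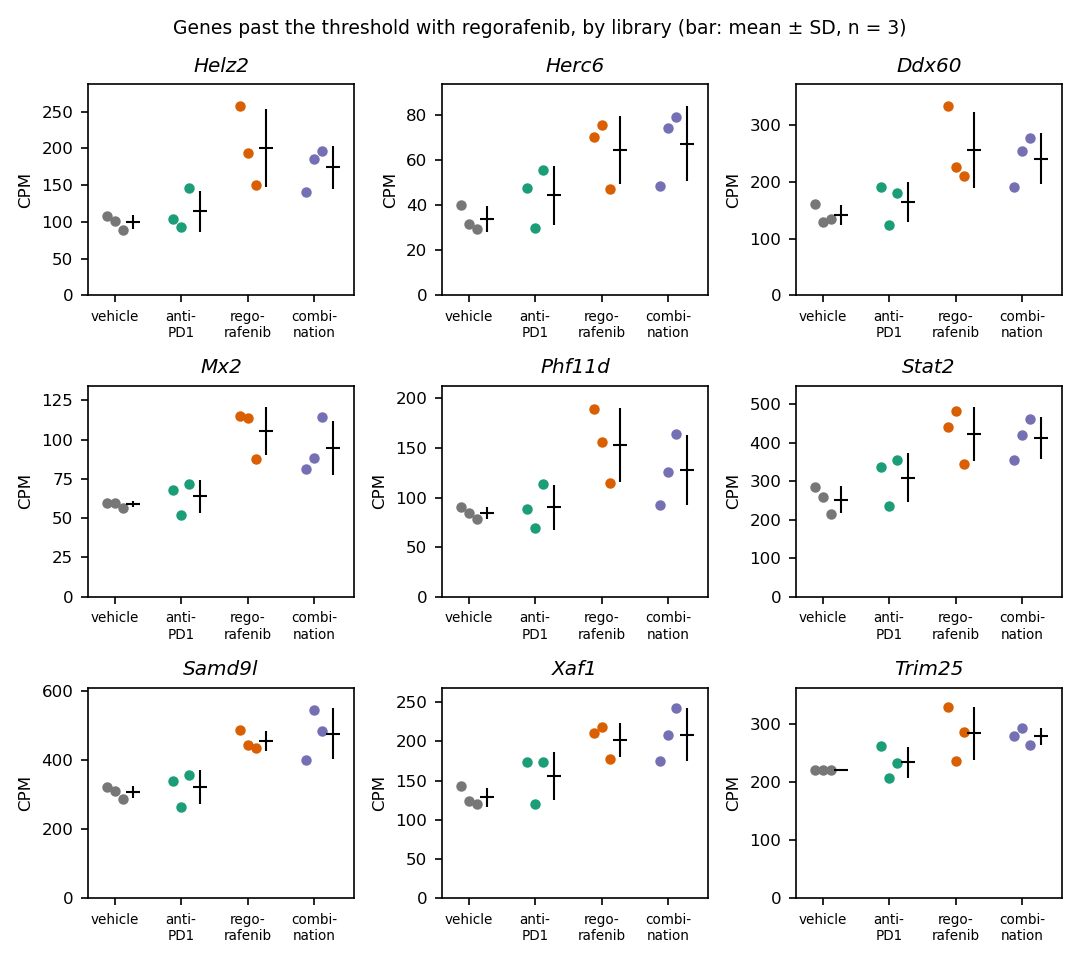
CPM of the 9 genes past the threshold in the average regorafenib effect, 1 point per library, by treatment group, with the mean and SD (n = 3) as a cross and bar. In Mx2, Ddx60, Samd9l and Xaf1 all 6 points of the regorafenib and combination groups lie above all 6 points of the vehicle and anti-PD1 groups, and in the other 5 genes the groups overlap.

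Complete separation of the 6 libraries with regorafenib from the 6 without was seen for 4 of 35 members (Mx2, Ddx60, Samd9l and Xaf1), against 2.87% of all genes tested in that direction. Each pair of groups was then compared by itself, in the same fit. The comparisons against vehicle share the vehicle libraries, and each is given with its own values. With regorafenib alone the median log2 fold change of the members was 0.68, and 34 were positive. All 3 regorafenib libraries lay above all 3 vehicle libraries for 28 members (80%), against 10.6% of genes tested. Even so, edgeR called 0 members, as it called 0% of all genes higher in that comparison, with the smallest adjusted p of a member at 0.117 (Mx2). At an unadjusted p under 0.05, 29 members differed, against 14.1% of genes, and DESeq2 called 10, against 2.66% of genes.

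With the combination against vehicle the median was 0.46 and 33 members were positive. Here edgeR called 5 members higher, against 5.03% of genes tested: Samd9l (log2 0.63, adjusted p 0.0285), Mx2 (0.69, 0.0333), Xaf1 (0.69, 0.0348), Stat2 (0.71, 0.0448) and Herc6 (0.99, 0.0484). Combination libraries lay wholly above vehicle for 18 members (51.4%), against 19.6% of genes. That count of 5 calls dropped to 0 without any 1 of the vehicle libraries, combination 1 or combination 2, and to 1 without combination 3. The share of all genes called in those fits is not given here. At an unadjusted p under 0.05, 15 members differed, against 27.9% of genes, and DESeq2 called 8, against 15.4% of genes.

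With anti-PD1 alone the median log2 fold change of the members against vehicle was 0.13, and 30 were positive. Dtx3l was the only member whose anti-PD1 libraries all lay above vehicle, against 7.93% of genes tested, and edgeR called 0 members, as 0% of all genes. At an unadjusted p under 0.05 1 member differed, against 5.17% of genes, and DESeq2 called 0, against 0.0295% of genes. The average anti-PD1 effect had a median of -0.02 with 15 members positive, and 0 were called by edgeR (0% of genes tested), with 1 at an unadjusted p under 0.05 (8.75% of genes) and 0 by DESeq2 (0.171% of genes). When regorafenib was added to anti-PD1 the median was 0.29 and 32 members were positive. The 6 members with no overlap between the combination and anti-PD1 were Stat2, Mx2, Ddx60, Samd9l, Trim25 and Xaf1. They were 17.1% of the members, close to the 13% of all genes. By edgeR 0 members passed where 1.7% of all genes rose, with 7 at an unadjusted p under 0.05 (20%), close to the 19.3% of all genes, and 2 called by DESeq2, against 7.37% of genes. This median ranged from 0.09 without combination 3 to 0.46 without anti-PD1 3.

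Adding anti-PD1 to regorafenib gave a median of -0.21, with 30 members negative, and 0 calls by edgeR (0% of genes higher). At an unadjusted p under 0.05 there was 1, against 5.45% of genes, and by DESeq2 0, against 0.0236% of genes. The interaction asks whether regorafenib changed a gene by a different amount when anti-PD1 was present. Its median was -0.36 and 33 of 35 members were negative, against 50.9% of all genes, so the regorafenib change was nominally smaller beside anti-PD1. No member passed by edgeR (0% of genes higher), at an unadjusted p under 0.05 (2.65% of genes) or by DESeq2 (0% of genes), with 0 in each. The interaction median ranged from -0.54 to -0.21 when libraries were left out, the latter without regorafenib 1.

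**Figure D3:**
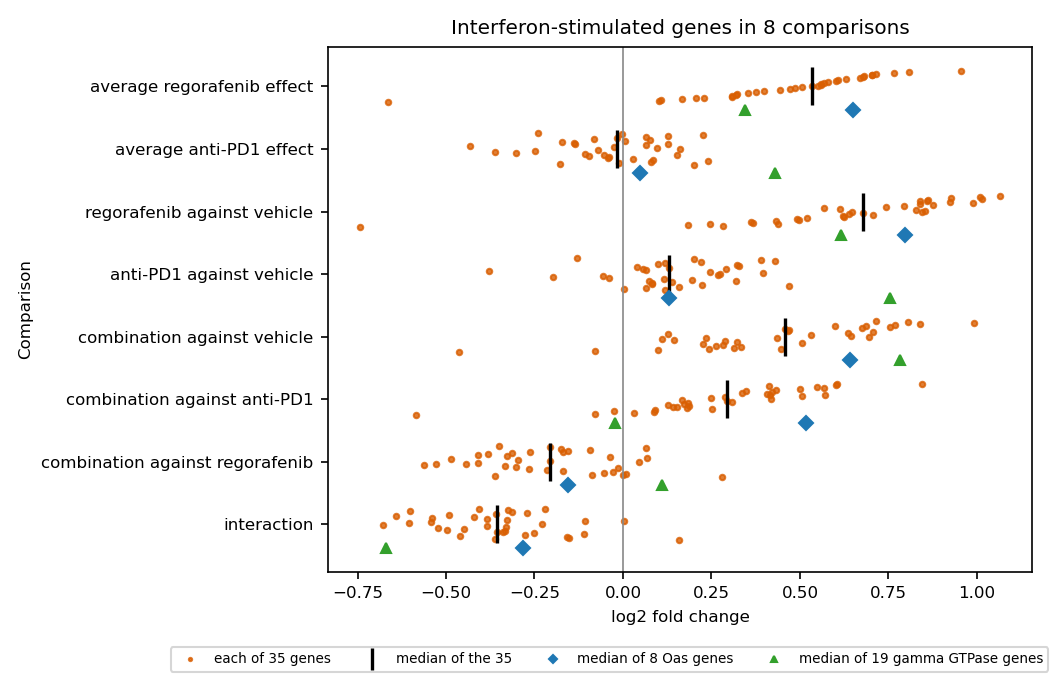
Log2 fold changes of the 35 genes (points) and their median (bar) in each of 8 comparisons, with the medians of 8 Oas genes (diamond) and 19 GTPase genes of the interferon gamma response (triangle). The median of the 35 is 0.53 in the average regorafenib effect and -0.02 in the average anti-PD1 effect, where that of the GTPase genes is 0.43.

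Libraries of the same group differed widely. Relative to the mean of the vehicle libraries, the median member of each library stood at a log2 difference of 1.04 in regorafenib 1, 0.73 in regorafenib 2 and 0.30 in regorafenib 3. In the combination it stood at 0.14, 0.40 and 0.76, and with anti-PD1 at 0.22, -0.19 and 0.38. Thus anti-PD1 3 lay above regorafenib 3 and combination 1. Of the 35 members, 21 had their highest value of all 12 libraries in regorafenib 1, against 14.3% of genes tested, and 7 in combination 3, against 4.6%. The lowest value was in anti-PD1 2 for 25 members, against 7.33% of genes, and in vehicle 3 for 8, against 7.31%. In anti-PD1 3, 34 members lay above every vehicle library, against 31.4% of genes, and in anti-PD1 2, 26 lay below every one, against 28.3% of genes.

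**Figure D4:**
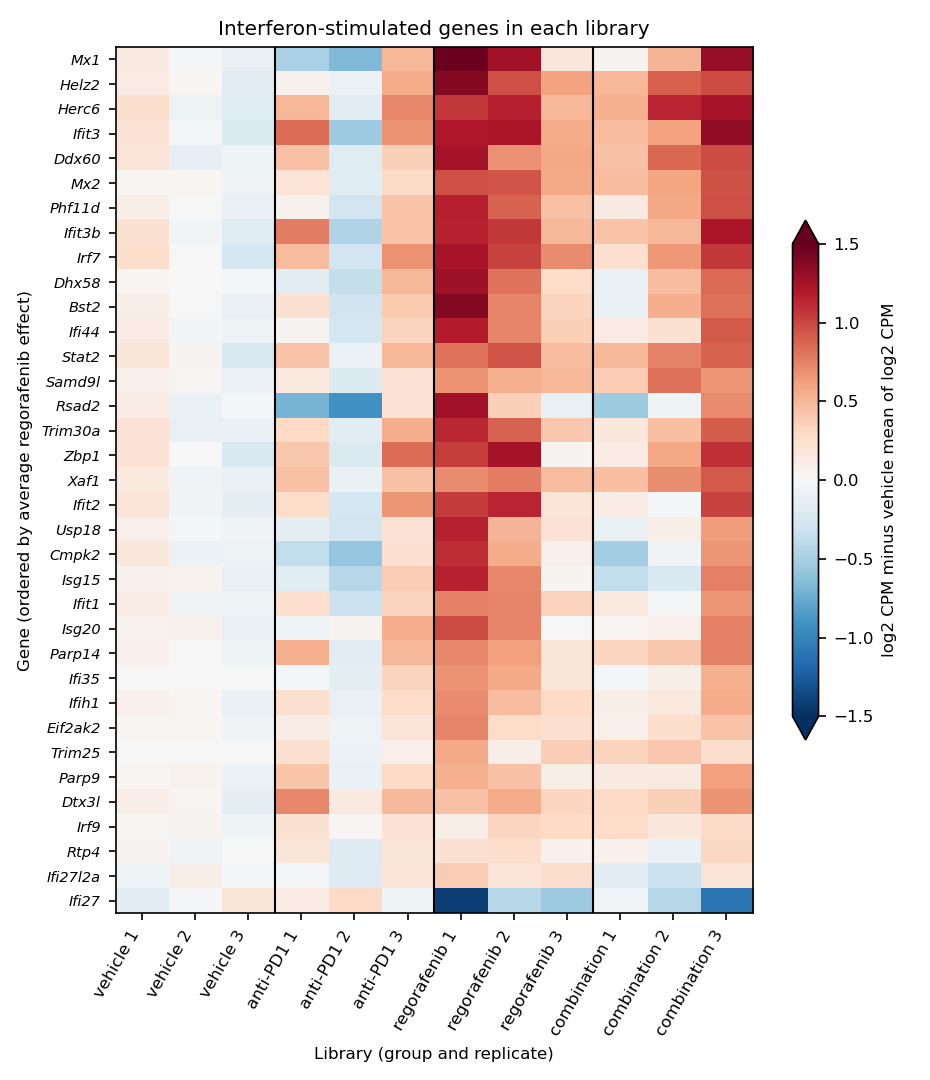
Log2 CPM of each of the 35 genes (rows, ordered by the average regorafenib effect) in each of 12 libraries (columns), minus the mean of the vehicle libraries. Regorafenib 1 and 2 and combination 3 are the most uniformly high columns, anti-PD1 2 is the lowest, and Ifi27 in the bottom row runs the other way.

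Markers of leukocytes, which make and answer interferon, also varied between libraries. The 8 markers, Ptprc (CD45) among them, summed to 627, 550.1 and 573 CPM with vehicle, 611, 544 and 1235 with anti-PD1, 961, 1186 and 445 with regorafenib and 422, 647 and 1010 with the combination. Sums were high in 4 of the libraries where the members were high (anti-PD1 3, regorafenib 1 and 2, combination 3) and were below every vehicle library in regorafenib 3 and combination 1. In regorafenib 3, 28 of 35 members lay above every vehicle library, against 36.2% of genes tested, and 2 lay below every one. In combination 1, 20 lay above every vehicle library, against 39.2% of genes, and 8 lay below every one. None of the 8 leukocyte markers passed the edgeR test of the average regorafenib effect (median 0.15, 0 at an unadjusted p under 0.05), and none was at zero. In the pairwise comparisons edgeR called 0 of the 8. All 8 were positive in regorafenib against vehicle (median 0.54, beside 0.68 for the members), in anti-PD1 against vehicle (0.43, beside 0.13) and in the combination against vehicle (0.21, beside 0.46). With the combination against anti-PD1, 7 of 8 were negative (median -0.17, beside 0.29). All 8 were negative with the combination against regorafenib (-0.34, beside -0.21) and in the interaction (-0.77, beside -0.36). With the log2 of this sum as a covariate, a fit added after the data had been seen, edgeR called 24 members, 23 of them higher and Ifi27 lower, all 9 original ones included, against 20.6% of all genes called. The median log2 fold change in that fit was 0.41. In the same fit 13 members were called with the combination against vehicle, against 20.8% of genes, and 9 with the combination against anti-PD1, against 6.32% of genes, and the interaction median was -0.10.

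**Figure D5:**
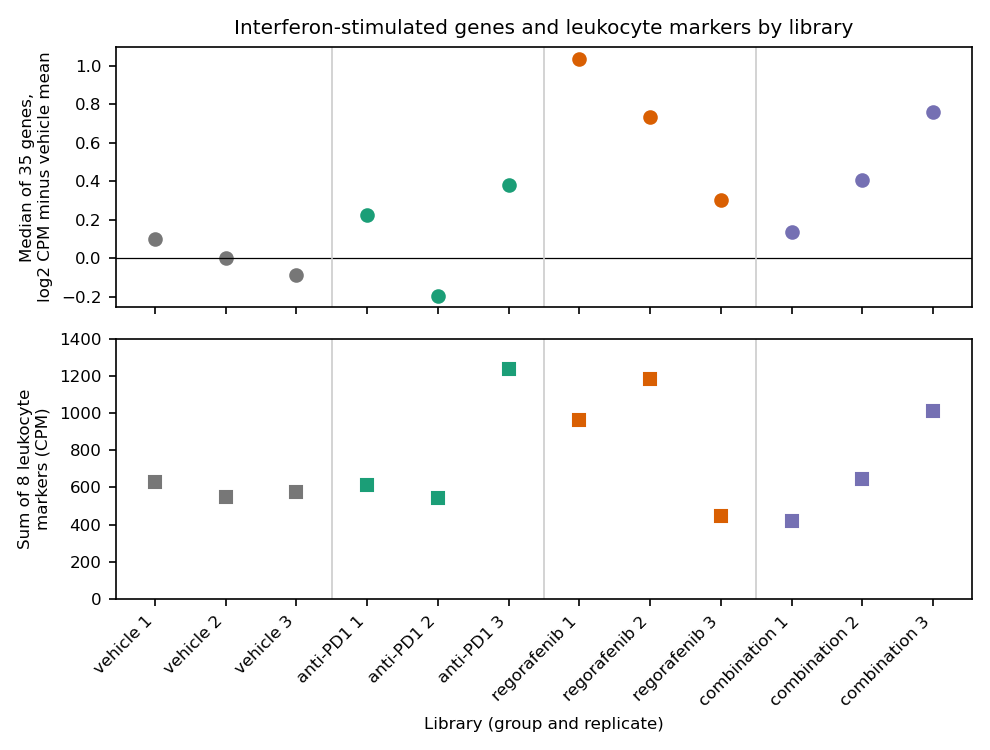
Median log2 difference of the 35 genes from the vehicle mean (upper panel) and summed CPM of 8 leukocyte markers (lower panel) in each library. Regorafenib 3 and combination 1 have leukocyte sums of 445 and 422 CPM, below all vehicle libraries, with gene medians of 0.30 and 0.14.

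Markers of other cell types were also looked at, and only some of them passed the edgeR test of the average regorafenib effect. Summed neutrophil markers were 9.78 to 16.0 CPM with vehicle, 9.56 to 26.8 with anti-PD1, 12.4 to 37.8 with regorafenib and 24.2 to 45.9 with the combination, and 1 of 7 (Trem1) rose. All 7 were positive, with a median log2 fold change of 1.28, and 6 of 7 had an unadjusted p under 0.05. Summed fibroblast markers were 22997 to 31237 CPM with vehicle, 5732 to 31276 with anti-PD1, 4888 to 28601 with regorafenib and 4096 to 11965 with the combination, and 1 of 6 (Lum, a collagen-binding proteoglycan) fell. Endothelial sums were 86.8 to 101.9, 83.3 to 113.8, 65.1 to 86.9 and 50.5 to 89.5 CPM in the same order, and 3 of 6 markers fell (Emcn, Cldn5 and Tie1). Of the 8 squamous markers Krt14 fell, and 7 were negative, with a median log2 fold change of -0.16. All 6 fibroblast markers were negative (median -1.28), as were all 6 endothelial ones (median -0.45). Of the fibroblast and of the endothelial markers, 4 each had an unadjusted p under 0.05 by edgeR, against 28% of genes tested. Macrophage sums followed the leukocyte sums, at 395 to 1162 CPM, with 0 of 9 markers called, and those of T and NK cells lay between 57.3 and 185 CPM, with 0 of 8 called. Siglech, which marks plasmacytoid dendritic cells, the best-known producers of type I interferon, averaged 5.28 ± 0.942 CPM (SD, n = 3) with vehicle, 4.24 ± 1.99 with anti-PD1, 7.72 ± 3.98 with regorafenib and 5.47 ± 3.99 with both agents, with an edgeR adjusted p of 0.544. All 6 markers listed for these cells were positive, with a median of 0.48, and 0 had an unadjusted p under 0.05. Their sums were 465 to 670 CPM with vehicle, 447 to 739 with anti-PD1, 464 to 869 with regorafenib and 563 to 675 with the combination. Siglech was a small part of these sums, and whether the other markers came from these cells was not tested. None of these lists had a marker at zero in all libraries. The part of these cell types in the result was not tested. The leukocyte covariate is a sum of bulk markers and cannot tell cell share from RNA per cell.

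Upstream of the members, transcripts of the interferons themselves gave few reads. Of 20 type I and III interferon genes 0 had enough reads for the test, and Ifnb1, the interferon that most cell types can make, had 33 reads in all 12 libraries together and at most 5 in any. Ifne had 35 reads in total, Ifna14 had 17, and 12 of the 20 genes were at 0. Of 6 interferon receptor genes 0 were called by edgeR, with 0 at an unadjusted p under 0.05 and a median log2 fold change of -0.05. Ifnar1 averaged 81.3 ± 5.81 CPM (SD, n = 3) with vehicle, 87.4 ± 6.99 with anti-PD1, 78.9 ± 6.10 with regorafenib and 78.5 ± 4.10 with both agents (log2 -0.10, edgeR adjusted p 0.326), and Ifnar2 had a log2 fold change of -0.04 (0.892). Of 12 kinases and transcription factors of the pathway that are not members, 12 were positive and 1 passed, Ikbke, the kinase IKK-epsilon that acts on Irf3 and Irf7 (log2 0.49 ± 0.09 SE, edgeR adjusted p 0.0153). Ikbke stood at 57.3, 51.4 and 56.6 CPM with vehicle, 46.0, 49.98 and 55.4 with anti-PD1, 81.7, 74.2 and 60.8 with regorafenib and 62.7, 84.7 and 79.1 with both agents. All libraries with the drug lay above all others for it. The factors Irf1 and Irf3 had log2 fold changes of 0.15 and 0.14 (edgeR adjusted p 0.567 and 0.139).

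Among 13 nucleic acid sensors and adaptors 3 rose, where 6.16% of all genes tested did. Adar, which edits double-stranded RNA and so hides it from Ifih1, averaged 198 ± 14.0 CPM (SD, n = 3) with vehicle, 222 ± 25.9 with anti-PD1, 283 ± 21.2 with regorafenib and 265 ± 14.4 with both agents (log2 0.39 ± 0.07 SE, edgeR adjusted p 0.0141). Ifi204, a DNA sensor of the p200 family, averaged 98.4 ± 7.47 CPM (SD, n = 3) with vehicle, 113 ± 30.2 with anti-PD1, 192 ± 58.9 with regorafenib and 165 ± 41.7 with both agents (0.76 ± 0.18, 0.0310), and the ubiquitin ligase Trim56 averaged 108 ± 2.12 CPM (SD, n = 3) with vehicle, 129 ± 18.2 with anti-PD1, 133 ± 10.4 with regorafenib and 161 ± 12.5 with both agents (0.31 ± 0.07, 0.0305). Of 9 tested negative regulators 1 rose, Socs3, a feedback inhibitor of cytokine receptors (0.46 ± 0.11, edgeR adjusted p 0.0305). The nuclease gene Trex1 was listed at 0 counts in every library. That value depends on how reads were counted, which is not given, so it is not read as absence of the transcript.

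Related interferon families gave a reference for the size of these changes. In the average regorafenib effect the 8 tested Oas genes, which sense double-stranded RNA and activate RNase L, had a median of 0.65. There 6 of 8 rose, against 9 of 35 members with a median of 0.53 and 6.16% of all genes tested. The 19 GTPase genes of the interferon gamma response had a median of 0.35 and 0 rose. In the average anti-PD1 effect the medians were 0.43 for the GTPase genes, 0.05 for Oas genes and -0.02 for the members, and 0 genes of the 3 lists were called. The differences between the lists were not tested.

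The calls can be set beside the promoter matches given above. Of the 11 members with a core match 2 rose (Ddx60 and Stat2) with a median log2 fold change of 0.56. Of the 14 without one 6 rose (Helz2, Herc6, Phf11d, Samd9l, Trim25 and Xaf1) with a median of 0.52. Among all genes tested 6.16% rose, and the difference between these sets was not tested. Of the 10 members without a promoter entry, Mx2 alone rose. The core searched is strict. Of the 6 called members without the core, Helz2, Phf11d and Xaf1 carried the 1-base spacing, which was searched only after the promoters had been read. Ifi35 and Ifi44 carried it too, lacked the core and were not called. Whether the spacing bears on the calls was not tested.

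Some members share sequence with other genes, and how the counting treated such reads is not given in the sources used here. Of all 50-base stretches in Ifit3 transcripts 51.2% also occurred in Ifit3b, and 45% of those of Ifit3b occurred elsewhere, so the split of reads between them is uncertain. The share was 12.5% in Herc6, 11.6% in Rtp4, 8.09% in Phf11d, 7.14% in Ifit1, 5.98% in Trim30a and 4.38% in Mx2 (with Mx1). Dtx3l and Parp9 overlap over 458 exonic bases on opposite strands, and the strand setting of the counting is not given either. On the same strand Herc6 overlaps Gm45193 over 1269 exonic bases and Rtp4 overlaps Gm45338 over 296. Shorter overlaps on the same strand join Irf9 with Rnf31 (123) and Parp14 with Gm49730 (110). Strand alone cannot separate reads from such stretches.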

How the data were processed

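Raw read counts per gene from 12 libraries (3 per group) were used as the authors deposited them, in 1 table of 55487 identifiers. Stranded libraries were made from polyadenylated RNA, per the labels' protocols. The submitters' processing notes name cutadapt 2.4, STAR 2.7.2a and the build GRCm38, while how reads were counted (tool, strandedness, annotation) is not given in the sources used here. Symbols and coordinates are those of GENCODE M21 and promoters those of the RefSeq table.

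Genes were kept by filterByExpr (minimum count 10, minimum total 15), which left 16974, and were tested two-sided with edgeR 4.0.16 under R 4.3.3 (quasi-likelihood, robust, TMM factors) in 1 fit of 4 group means with 8 residual degrees of freedom, adjusted by Benjamini-Hochberg over all genes within each of 8 comparisons at a threshold of 0.05. SE is the log2 fold change divided by the square root of F. Log2 CPM used a prior count of 2. The test was run on simulated data first. The members and all gene lists were chosen with earlier results of these data known.

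Values per library are given for members called in any comparison, the 3 of smallest absolute change in the average regorafenib effect and the 4 of highest level per length. Ifi27 was added after its values were seen. Pathway genes named are those called, with Ifnb1, both receptor chains, Irf1 and Irf3, and 1 further gene of that rule is not reported here. Alternatives were DESeq2 1.42.0, RLE factors, library totals only, no filter, a replicate block, the libraries of a pair only, each library left out and, added later, a leukocyte covariate. No pair of libraries within a group was a duplicate, with chi-square per gene from 11.9 to 123, and pairs between groups were not checked. Library totals ranged from 22591835 to 28209036 counts, which gave every member at least 417 counts in each library.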

Additional observations from a re-analysis of the deposited data

How the results depend on the processing

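The number of members called in the average regorafenib effect, 9 by edgeR, was 20 by DESeq2 (19 higher, all 9 included), 24 with the leukocyte covariate and 4 with a replicate block (Mx2, Samd9l, Ddx60 and Helz2). It was 8 with RLE factors, 9 with library totals only and 6 without the low-count filter, and with 1 library left out it ran from 3 (without vehicle 2, vehicle 3 or combination 2) to 11 (without regorafenib 3), with 4 without anti-PD1 2. In combination against vehicle, 5 by edgeR, it was 8 by DESeq2, 3 without the filter, 0 with the replicate block, 13 with the leukocyte covariate, 9 in the 6 libraries of the pair and 0 to 6 with 1 library left out. In regorafenib against vehicle, 0 by edgeR, it was 10 by DESeq2 and 1 with the leukocyte covariate, and in combination against anti-PD1, 0 by edgeR, it was 2 by DESeq2 and 9 with that covariate. The share of all genes called shifted as well. In the average regorafenib effect 6.16% rose by edgeR, while DESeq2 called 16.5% and the fit with the leukocyte covariate 20.6% in either direction. For the scaling, filter, block, pair and left-out fits that share is not given here. Their counts therefore cannot be set against all genes. The cause of these shifts was not tested. The 35 members kept their direction in the average regorafenib effect under every alternative run, and the scaling alternatives moved the median of all genes by at most 0.0344 on the log2 scale.

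Samples carry numbers 1 to 3 within a group, and no label gives these numbers a meaning across groups. Deviations of same-numbered samples correlated at -0.657 to 0.630 over 18 pairs, with 2 pairs above 0.1, so the replicate block is given only as an alternative and the samples were not treated as paired. The fit had 3 libraries in a group and 8 residual degrees of freedom, and every member had at least 417 counts in every library. Where a left-out library leaves 2 in its group, their spread is taken from the fit over all groups.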
